A study of Homo sapiens with 4 samples.

Results

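PPARG and MYOCD are regulators of mesenchymal cell fate whose transcripts lay in opposite directions after BRPF3 was targeted by siRNA in an osteosarcoma line. They were chosen by their measured difference between the groups, PPARG higher and MYOCD lower after BRPF3 siRNA, so this difference is given here as a description without a test. All probe sets (groups of array probes summarised to a single value) that the platform annotation names for either gene were used. There was 1 for each gene, so 2 of the 16098 probe sets that carry a single gene symbol, and 2 of 53617 in all.

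U2OS, an established line from a human osteosarcoma and of mesenchymal origin, was profiled on Affymetrix arrays that probe whole transcripts, with 1 array for each sample. In the control group 2 cultures received scramble siRNA, and in the other group 2 cultures received siRNA against BRPF3, each at 50 nM with RNA taken at 48 hours. BRPF3 is a scaffold of the histone acetyltransferase complexes built on KAT7 (HBO1). No probe set is named for BRPF3, so the depletion stated in the labels was not checked, and the labels give no siRNA sequence. The labels call the samples of a group biological replicates without saying how separate the cultures were, and the p-values below reflect only the scatter among these 4 arrays, which may be technical.

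PPARG is a nuclear receptor that binds DNA as a heterodimer with an RXR receptor and switches on genes of lipid uptake and storage when fatty acids or drugs of the glitazone class bind it. It is the central regulator of fat cell formation, and in marrow stroma it is known to favour the fat over the bone lineage. MYOCD (myocardin) is a coactivator that binds no DNA by itself. It acts through SRF, the factor that binds CArG boxes, and drives the contractile genes of smooth muscle and heart. Neither gene is a marker of the bone lineage to which osteosarcoma is related.

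Promoter sequences from RefSeq (build GRCh38.p14) are shown first because the PPARG and SRF programmes are read from short DNA elements. RefSeq promoter windows were matched for PPARG, which has 6 annotated start sites, and for 15 of the 20 list genes called changed below. MYOCD and DES were not matched. Each sequence is the 250 bases before a start site, 5′ to 3′ on the strand of the gene. Capitals mark either the hexamer AGGTCA (or its reverse complement TGACCT), the element to which nuclear receptors such as PPARG and RXR bind as pairs, or a CArG box. PPARG is shown at 3 starts that lie apart (chr3:12287118-12287367, chr3:12288810-12289059 and chr3:12351167-12351416, all on the plus strand), while of the other 3 starts 1 overlaps the middle window and 2 lack both elements. TPM4 (chr19:16067288-16067537, plus strand) is shown as the changed list gene with a CArG box. TPM4 has 3 windows, and only the window shown holds this box. SRF (chr6:43171019-43171268, plus strand) and SMTN, the smooth muscle protein smoothelin (chr22:31084746-31084995, plus strand), show this element in the factor and in a muscle gene that did not pass the test.
PPARG, upstream start: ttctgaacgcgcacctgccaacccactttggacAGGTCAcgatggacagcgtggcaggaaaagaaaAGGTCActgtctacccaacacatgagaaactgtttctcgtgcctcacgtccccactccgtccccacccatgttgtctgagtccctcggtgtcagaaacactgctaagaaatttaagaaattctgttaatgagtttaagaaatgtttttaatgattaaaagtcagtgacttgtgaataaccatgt
PPARG, middle start: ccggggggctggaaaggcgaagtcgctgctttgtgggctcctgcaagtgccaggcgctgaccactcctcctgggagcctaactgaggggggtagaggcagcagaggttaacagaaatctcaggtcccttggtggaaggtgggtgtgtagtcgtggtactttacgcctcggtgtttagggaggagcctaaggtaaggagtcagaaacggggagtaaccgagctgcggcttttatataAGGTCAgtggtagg
PPARG, downstream start: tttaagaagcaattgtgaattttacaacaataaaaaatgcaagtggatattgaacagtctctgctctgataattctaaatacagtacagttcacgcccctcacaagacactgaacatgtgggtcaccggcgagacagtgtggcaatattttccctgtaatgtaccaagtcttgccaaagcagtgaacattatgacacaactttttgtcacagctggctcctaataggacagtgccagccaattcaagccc
TPM4: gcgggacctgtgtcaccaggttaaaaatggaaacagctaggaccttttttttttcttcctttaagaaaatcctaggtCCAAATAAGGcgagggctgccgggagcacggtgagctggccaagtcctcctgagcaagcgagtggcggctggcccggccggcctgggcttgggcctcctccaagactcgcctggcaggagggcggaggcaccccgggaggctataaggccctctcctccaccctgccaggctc
SRF: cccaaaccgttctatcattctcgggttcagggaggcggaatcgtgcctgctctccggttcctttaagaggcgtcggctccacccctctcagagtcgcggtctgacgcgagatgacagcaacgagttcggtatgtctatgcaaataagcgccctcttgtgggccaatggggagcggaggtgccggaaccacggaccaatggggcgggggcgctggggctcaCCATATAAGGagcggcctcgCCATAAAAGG
SMTN: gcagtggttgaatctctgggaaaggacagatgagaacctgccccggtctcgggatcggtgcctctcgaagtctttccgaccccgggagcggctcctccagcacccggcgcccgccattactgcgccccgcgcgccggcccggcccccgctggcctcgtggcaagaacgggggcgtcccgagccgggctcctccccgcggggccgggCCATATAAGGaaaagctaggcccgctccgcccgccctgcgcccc
The upstream PPARG window held AGGTCA beginning at positions -217 and -184, and the middle window held it at -14, counted from the start site. The downstream window held neither element. The exact DR1 form of the PPAR response element has 2 AGGTCA hexamers in the same direction separated by 1 base. Searched on both strands, it was in 6 of 35116 promoter windows (0.0171%) and in 0 of the 6 of PPARG. Elements that depart from these letters were not searched, so these counts do not show that PPAR response elements are absent. AGGTCA or TGACCT alone was in 12.1% of all windows. The CArG box, which reads alike on both strands and was searched by its usual consensus, was in 1.16% of all windows. Among the tested MYOCD and SRF genes listed below it was in 10 of 84 windows (11.9%), from 8 of 45 genes with a window. In the windows of the called genes of these lists it was in 1 of 25 (4%). By gene it was in 1 of 9 called genes with a window (11.1%), against 17.8% of the tested genes with a window. Lists of known SRF targets are among them, so the share of CArG boxes is not independent of how the genes were chosen. In the PPARG lists AGGTCA or TGACCT was in 3 of 65 windows (4.62%). A match describes these letters and does not show that a factor binds there.

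PPARG had log2 RMA values of 5.13 and 5.21 with control siRNA against 5.94 and 6.35 with BRPF3 siRNA. Both BRPF3 siRNA arrays lay above both control arrays, with a gap of 0.73 between the nearest arrays of the groups. Groups without overlap were seen for 63.2% of all tested genes. The group means were 5.17 ± 0.06 (SD, n = 2) and 6.14 ± 0.29 (SD, n = 2), a log2 difference of 0.98, or 1.97-fold. Within replicate sets the difference was 0.81 in set 1 and 1.14 in set 2. The control mean lay 0.58 above the intensity bound used for testing (4.59, the median over all probe sets). Values near this bound are compressed, so the size of the PPARG difference is uncertain. By size its difference was the 40th highest of 10696 tested genes.

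MYOCD had log2 values of 8.01 and 7.82 with control siRNA and 6.80 and 6.33 with BRPF3 siRNA. Both BRPF3 siRNA arrays lay below both control arrays, with a gap of 1.02 between the nearest arrays. Such separation, in either direction, held for 63.2% of all tested genes. The means were 7.91 ± 0.13 (SD, n = 2) and 6.56 ± 0.33 (SD, n = 2), a log2 difference of -1.35, or 2.55-fold lower after BRPF3 siRNA. The difference was -1.21 in replicate set 1 and -1.49 in set 2. Its mean after BRPF3 siRNA still lay 1.98 above the bound. Its difference was the 6th lowest of the tested genes. RefSeq annotates an antisense RNA, MYOCD-AS1, inside the gene, which was not analysed here.

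Both genes varied more between the BRPF3 siRNA arrays than most genes did. The SD of PPARG there was larger than that of 95.3% of tested genes, and that of MYOCD larger than that of 96.7%, against 47.5% and 79.6% on the control arrays. For both, replicate 2 of the BRPF3 siRNA group lay farther from the control mean than replicate 1. Over all genes called changed, replicate 2 was the farther array for 52.6%. Without BRPF3 siRNA replicate 1 the PPARG difference was 1.18, and without replicate 2 it was 0.77. The corresponding MYOCD differences were -1.58 and -1.12.

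**Figure D1:**
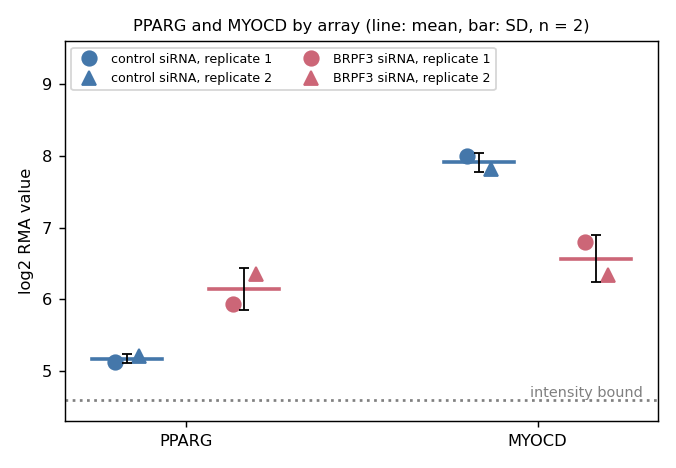
Log2 RMA values of PPARG and MYOCD on each array, with circles for replicate 1, triangles for replicate 2, coloured lines for group means and black bars for the SD (n = 2 per group). PPARG lies at 5.13 and 5.21 with control siRNA and 5.94 and 6.35 with BRPF3 siRNA, MYOCD at 8.01 and 7.82 against 6.80 and 6.33, and the dotted line is the intensity bound of 4.59.

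The other genes of both pathways were then read from a limma fit over all 10696 tested genes, with Benjamini-Hochberg adjustment over all of them and a gene called changed at an adjusted p under 0.05. The fit held the group as its only factor and did not pair the arrays by replicate set. Over all tested genes 15.8% changed, 6.32% risen and 9.44% fallen, and the median difference was -0.03. All differences below are log2, BRPF3 siRNA minus control siRNA, ± limma's moderated SE with n = 2 arrays per group. The number of arrays limits the precision of these calls. Without either control array 0 genes of the whole table passed (limma, 2446 and 2477 genes at an unadjusted p under 0.05 without control replicate 1 and 2), so each call below ends there. The log2 values are not measured per length and each probe set has its own response, so a level is set only against the intensity bound and not against that of another gene.

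**Figure D2:**
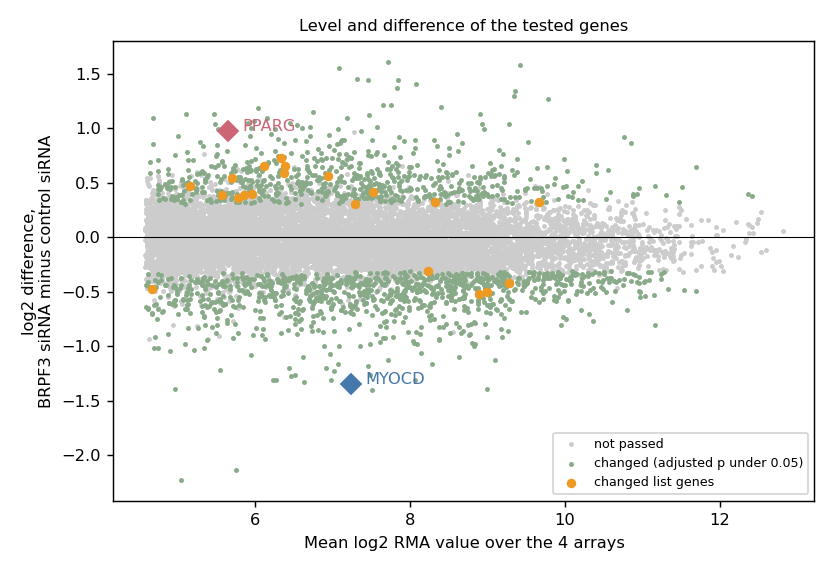
Log2 difference (BRPF3 siRNA minus control siRNA) against the mean log2 RMA value over the 4 arrays for the 10696 tested genes, with changed genes in green, changed list genes in orange, and PPARG and MYOCD as diamonds. PPARG has a difference of 0.98 and MYOCD of -1.35, and both were chosen for these values.

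Among the partners and coregulators of PPARG, 2 of 15 tested genes rose, 1 fell and 12 did not pass. This is a share of 20% called, near the 15.8% of all tested genes. PRDM16, a coregulator known for directing brown fat, had values of 5.78 and 5.81 with control siRNA and 6.60 and 6.30 with BRPF3 siRNA. It rose 1.57-fold (0.65 ± 0.12, limma adjusted p = 0.0249). Its groups did not overlap, which held for 63.2% of all tested genes. NCOA1, a coactivator of nuclear receptors, rose by 0.32 ± 0.08 (limma adjusted p = 0.0470). HDAC3, a class I histone deacetylase, had values of 8.40 and 8.38 against 8.09 and 8.07. It fell by 0.31 ± 0.08 (limma adjusted p = 0.0473). With the replicate set as a block, the adjusted p in limma was 0.0577 for NCOA1 and 0.0588 for HDAC3, which ends both calls. The call for HDAC3 also ended after quantile normalization (limma adjusted p = 0.0732) and after cyclic loess normalization (limma adjusted p = 0.0757). The acetyltransferases CREBBP (0.25 ± 0.09) and EP300 (0.24 ± 0.12) and the Mediator subunit MED1 (-0.13 ± 0.08) did not pass. The other PPAR receptors, PPARA (-0.16 ± 0.09) and PPARD (-0.16 ± 0.10), did not pass either. RXRA, RXRB and NCOR1 were not analysed here.

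Of 18 tested adipogenic transcription factors and inhibitors, 2 rose and 16 did not pass. This is a share of 11.1% called, against 15.8% of all tested genes. EBF1, an early factor of the adipocyte and B cell lineages, had values of 5.47 and 5.40 with control siRNA and 5.83 and 6.13 with BRPF3 siRNA. It rose 1.46-fold (0.54 ± 0.12, limma adjusted p = 0.0363). GATA2, which is known to hold preadipocytes back from differentiation, had values of 4.84 and 5.01 against 5.39 and 5.41. It rose 1.39-fold (0.47 ± 0.09, limma adjusted p = 0.0271). The genes that rose here include an activator and an inhibitor of fat cell formation. KLF5 (-0.30 ± 0.09, limma adjusted p = 0.0730), an activator of PPARG in preadipocytes, and CREB1 (0.30 ± 0.09, limma adjusted p = 0.0827) did not pass, nor did KLF3 (-0.01 ± 0.08), whose sign turned to above 0 after quantile and cyclic loess normalization. DLK1, KLF15 and STAT5A lay below the intensity bound. CEBPA, CEBPB and CEBPD, which act with PPARG in the adipogenic cascade, were not analysed here.

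Among the genes listed as PPARG targets in lipid uptake, storage and oxidation, 1 of 19 tested genes rose and 18 did not pass. The list includes the hormone genes RETN and LEP and is not confined to genes that PPARG activates. This is a share of 5.26% called, against 15.8% of all tested genes. The median difference of the list was 0.06, against -0.03 for all tested genes, and 15 of 19 differences were above 0, against 44.9% of all tested genes. The median and this count were taken on the deposited values alone. OLR1, a receptor for oxidised lipoprotein, had values of 6.01 and 6.15 with control siRNA and 6.50 and 6.84 with BRPF3 siRNA, and rose by 0.59 ± 0.13 (limma adjusted p = 0.0388). PLIN2, a coat protein of lipid droplets, had 5.98 and 6.02 against 6.16 and 6.15, a difference of 0.15 ± 0.08 (limma adjusted p = 0.223). ANGPTL4, a secreted inhibitor of lipoprotein lipase, had 5.67 and 5.83 against 5.86 and 5.75, where the groups overlap (0.06 ± 0.09, limma adjusted p = 0.710). The desaturase SCD (-0.30 ± 0.08, limma adjusted p = 0.0518), DGAT1 (0.26 ± 0.09), which makes triglyceride, and ACSL1 (0.12 ± 0.08), which activates fatty acids, did not pass. Under an intensity trend in eBayes SCD passed as fallen and DGAT1 as risen. The named members LPL, CD36, LEP, CIDEC, AQP7, GPD1 and PCK1 were all below the intensity bound, as for CD36 with group means of 2.40 and 2.31. FABP4, PDK4 and ADIPOQ were not analysed here.

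Over the 3 lists around PPARG, 6 of 52 tested genes changed (11.5%, against 15.8% of all tested genes), 5 risen and 1 fallen. Under an intensity trend 14 of the 52 passed, with 2645 of the 10696 tested genes, and without an intensity filter 0 passed (limma, 18 at an unadjusted p under 0.05). The number was 3 without BRPF3 siRNA replicate 1 and 1 without BRPF3 siRNA replicate 2. It was 0 without either control array in limma, with 8 and 15 of the 52 genes at an unadjusted p under 0.05. PRDM16 lost its call without BRPF3 siRNA replicate 1, EBF1 and OLR1 lost theirs without replicate 2, and NCOA1, HDAC3 and GATA2 whichever of these arrays was dropped. Of 8 adipocyte markers 6 are named, and 4 of these lay below the bound. Their summed log2 level ran from 27.7 to 27.8 with control siRNA and from 28.5 to 28.8 with BRPF3 siRNA. The largest shifts of single markers were those of LEP (0.46) and LPL (0.27), both below the bound. The tested markers CFD (0.12 ± 0.08) and PLIN1 (0.05 ± 0.12) did not pass.

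For MYOCD, 27 relatives and partners were tested, of which 4 rose, 2 fell and 21 did not pass. The share called was 22.2%, against 15.8% of all tested genes. Over genes at or above the bound in both groups it was 5 of 26 (19.2%, against 15.7% of all such genes). This restriction was chosen after seeing the data. SRF, the DNA-binding partner whose promoter with its CArG boxes is printed above, had values of 9.74 and 9.54 with control siRNA and 9.51 and 9.48 with BRPF3 siRNA. Its difference of -0.15 ± 0.10 did not pass (limma adjusted p = 0.319). The related coactivators MRTFA (0.25 ± 0.08, limma adjusted p = 0.0800) and MRTFB (-0.07 ± 0.09, limma adjusted p = 0.620) also did not pass. After cyclic loess normalization MRTFA passed as risen (0.32, limma adjusted p = 0.0474), and the sign of MRTFB turned to above 0 under quantile and cyclic loess normalization.

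Among the changed partners, SMAD3, a transducer of TGF-beta signals, had values of 5.70 and 5.63 against 6.04 and 6.07, and rose by 0.39 ± 0.08 (limma adjusted p = 0.0307). Its common partner SMAD4 had 9.53 and 9.45 against 8.98 and 9.16, and fell by 0.42 ± 0.09 (limma adjusted p = 0.0391). Of the class IIa deacetylases, which bind MEF2 factors, HDAC9 rose by 0.36 ± 0.08 (limma adjusted p = 0.0390), and HDAC4 fell by 0.47 ± 0.10 (limma adjusted p = 0.0339) from a mean of 4.91 to 4.44. The latter is under the intensity bound, so HDAC4 entered the test only through its control level. GATA6, a zinc finger factor of smooth muscle and heart, rose by 0.40 ± 0.09 (limma adjusted p = 0.0431). CSRP1, a LIM protein of smooth muscle, rose by 0.32 ± 0.08 (limma adjusted p = 0.0436). With the replicate set as a block, the adjusted p in limma was 0.0530 for SMAD4, 0.0576 for GATA6 and 0.0560 for CSRP1, which ends these 3 calls. Quantile (limma adjusted p = 0.0544) and cyclic loess normalization (limma adjusted p = 0.0604) also ended the call of SMAD4. An intensity trend ended that of HDAC4 (limma adjusted p = 0.0530), and HDAC4 was not tested when all its probe sets were averaged. TEAD4 (0.07 ± 0.08) and MEF2D (0.11 ± 0.08) did not pass.

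Of 13 tested smooth muscle genes 1 rose and 12 did not pass, a share of 7.69% called, against 15.8% of all tested genes. The gene that rose was DES, the intermediate filament desmin of muscle, with values of 5.93 and 6.02 against 6.81 and 6.59. It rose 1.65-fold (0.73 ± 0.10, limma adjusted p = 0.0153), opposite in direction to MYOCD. DES kept its call without either BRPF3 siRNA array. TAGLN, the actin-binding protein transgelin and a classical MYOCD target, had values of 6.50 and 6.54 against 6.74 and 6.76. Its arrays did not overlap between groups, which held for 63.2% of all tested genes, and its difference of 0.23 ± 0.08 did not pass (limma adjusted p = 0.0995). VCL (-0.08 ± 0.09), TGFB1I1 (0.10 ± 0.09) and PDLIM7 (0.13 ± 0.13), all of adhesion sites, did not pass. The sign of VCL turned to above 0 under quantile and cyclic loess normalization, and that of PDLIM7 to below 0 without control replicate 2. Leaving out this array unbalances the replicate sets, and PDLIM7 was higher after BRPF3 siRNA within both sets (8.42 against 8.52, and 8.15 against 8.31). The list ran from -0.14 to 0.73 with a median of 0.13. ACTA2, CNN1 and MYH11 were not analysed here. Of 8 smooth muscle markers 4 are named, all above the bound, with a summed log2 level of 23.7 to 24.1 with control siRNA and 24.94 to 25.03 with BRPF3 siRNA. The largest shift among these 4 was that of DES (0.73). LMOD1 (0.24) and TAGLN (0.23) did not pass, nor did SMTN, which went the other way (-0.11).

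Among broad SRF targets of the cytoskeleton and the immediate early response, 2 of 14 tested genes fell and 12 did not pass. The share called was 14.3%, near the 15.8% of all tested genes. TPM4, a cytoskeletal tropomyosin with a CArG box in 1 of its 3 promoter windows, had values of 9.17 and 9.15 with control siRNA and 8.65 and 8.63 with BRPF3 siRNA. It fell by 0.52 ± 0.08 (limma adjusted p = 0.0162) and kept its call without either BRPF3 siRNA array. TLN1, the integrin-binding protein talin, had 9.22 and 9.27 against 8.74 and 8.75, and fell by 0.50 ± 0.08 (limma adjusted p = 0.0182). Its call ended without BRPF3 siRNA replicate 1. The list had 11 of 14 differences below 0, against 55.1% of all tested genes. Its median was -0.17, against -0.03 for all tested genes. This count and median were not repeated under quantile or cyclic loess normalization. There the share of all calls that fell was 48.4% and 49.0%, against 59.9% on the deposited values. Some of the differences below 0 were present within replicate set 1 and not within set 2. FOSB had 7.73 and 6.22 with control siRNA against 6.89 and 6.26, and JUNB 9.58 and 8.79 against 9.27 and 8.96. For both, the groups overlap and both BRPF3 siRNA arrays lay above control replicate 2. In each group replicate 1 lay above replicate 2 for these genes, a spread by replicate set that the main fit did not model. The groups of TPM4 and TLN1 did not overlap. The immediate early gene EGR1, which has CArG boxes in its promoter window, had 11.94 and 10.35 with control siRNA and 11.56 and 10.86 with BRPF3 siRNA. Its groups overlap (0.07 ± 0.51, limma adjusted p = 0.938). CCN2 (-0.13 ± 0.20), a secreted matrix protein, and ANKRD1 (-0.21 ± 0.12), a nuclear ankyrin protein, did not pass. The sign of EGR1 turned to below 0 when control replicate 2 or BRPF3 siRNA replicate 1 was left out. That of CCN2 turned to above 0 when control replicate 1 or BRPF3 siRNA replicate 2 was left out. Replicate 1 also lay above replicate 2 in each group for EGR1 and CCN2, and leaving out an array unbalances the replicate sets. CCN2 was lower after BRPF3 siRNA within both sets (11.58 against 11.36, and 11.06 against 11.02), while EGR1 differed in sign between them.

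Of 4 tested genes of heart and skeletal muscle structure 1 rose and 3 did not pass (25% called, against 15.8% of all tested genes). NPPA, the atrial natriuretic peptide and an SRF target in heart, had values of 5.45 and 5.32 against 5.84 and 5.70, and rose by 0.39 ± 0.09 (limma adjusted p = 0.0461). This call ended after quantile normalization (limma adjusted p = 0.0515), after cyclic loess normalization (limma adjusted p = 0.0504) and under an intensity trend (limma adjusted p = 0.0503). NPPB (0.32 ± 0.08, limma adjusted p = 0.0543), XIRP1 (-0.16 ± 0.09) and TNNC1 (-0.05 ± 0.10) did not pass. Over the 4 lists around MYOCD, 10 of 58 tested genes changed (17.2%, against 15.8% of all tested genes), 6 risen and 4 fallen. Over genes at or above the bound in both groups, a restriction chosen after seeing the data that leaves out HDAC4, it was 9 of 57 (15.8%, against 15.7% of all such genes). Without an intensity filter 1 passed. The number was 2 without BRPF3 siRNA replicate 1 and 4 without BRPF3 siRNA replicate 2. It was 0 without either control array in limma, with 12 and 17 of the 58 genes at an unadjusted p under 0.05. The 6 changed partners and NPPA lost their calls whichever BRPF3 siRNA array was dropped. The median difference over these 58 genes was -0.0040.

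Among 27 tested regulators of the other mesenchymal lineages, 4 rose and 23 did not pass. The share called was 14.8%, near the 15.8% of all tested genes. MKX (mohawk), a homeobox regulator of tendon, had values of 6.02 and 6.10 with control siRNA and 6.62 and 6.80 with BRPF3 siRNA. It rose 1.57-fold (0.65 ± 0.10, limma adjusted p = 0.0161) and kept its call without either BRPF3 siRNA array. PAX7, the factor of skeletal muscle stem cells, had 6.81 and 6.52 against 7.34 and 7.11, and rose 1.48-fold (0.57 ± 0.13, limma adjusted p = 0.0426). FOXF1, a forkhead factor of visceral mesenchyme, rose by 0.42 ± 0.09 (limma adjusted p = 0.0364). TBX15, a T-box factor of limb skeleton and fat depots, rose by 0.31 ± 0.08 (limma adjusted p = 0.0496), a call that ended with the replicate set as a block (limma adjusted p = 0.0608). The osteoblast regulator RUNX2 had 6.56 and 6.39 against 6.32 and 6.31, and its difference of -0.16 ± 0.09 did not pass (limma adjusted p = 0.275). SP7 (osterix), which acts after RUNX2, lay close to the intensity bound and differed by -0.18 ± 0.14 (limma adjusted p = 0.392). SOX9, the cartilage regulator, had 10.37 and 10.67 against 10.71 and 11.01, and did not pass (0.34 ± 0.15, limma adjusted p = 0.166). The muscle regulator MYOD1 differed by 0.05 ± 0.09, ATF4 by 0.18 ± 0.08 and SNAI2 by 0.14 ± 0.12. Under an intensity trend 7 regulators passed, and without an intensity filter 1. The number of changed regulators was 2 without BRPF3 siRNA replicate 1 and 2 without BRPF3 siRNA replicate 2. It was 0 without either control array in limma, with 7 and 8 of the 27 genes at an unadjusted p under 0.05. FOXF1, PAX7 and TBX15 lost their calls whichever BRPF3 siRNA array was dropped.

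**Figure D3:**
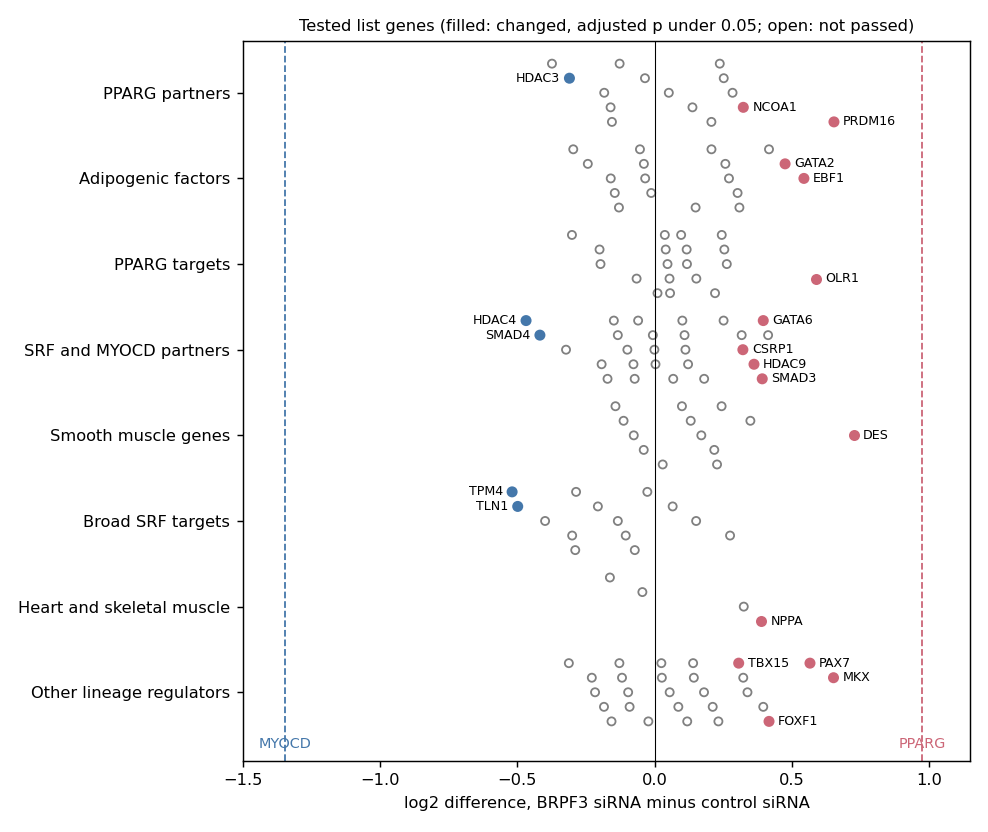
Log2 differences (BRPF3 siRNA minus control siRNA) of the tested genes in the 8 lists, filled and named where changed (limma adjusted p under 0.05, red risen, blue fallen) and open where the test was not passed. The list genes run from TPM4 (-0.52) to DES (0.73), and the dashed lines give PPARG (0.98) and MYOCD (-1.35), which were chosen for their differences.

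Tested genes with the profile nearest to each regulator over the 4 arrays were found by the Euclidean distance between log2 values centred on each gene's own mean. For PPARG these were CPEB2 (distance 0.09), which regulates translation, the photoreceptor cadherin CDHR1 (0.10), the transcribed pseudogene OGFRP1 (0.14), the autophagy protein GABARAPL1 (0.15) and FGF21 (0.16), a hormone of fasting metabolism. The median distance of all tested genes from PPARG was 1.06. Their differences ran from 0.84 for GABARAPL1 to 1.09 for FGF21. FGF21 had values of 5.62 and 5.59 with control siRNA and 6.54 and 6.86 with BRPF3 siRNA. For MYOCD the nearest were ARHGDIB (distance 0.07), RNF43 (0.08), which marks Wnt receptors for degradation, the chemokine CCL24 (0.20), the secreted protein CRISPLD1 (0.21) and the synaptic scaffold HOMER1 (0.22), against a median of 1.38. ARHGDIB had values of 5.76 and 5.58 against 4.48 and 4.09. Its BRPF3 siRNA mean of 4.28 lay below the intensity bound, so it entered the test only through its control level. These genes were chosen for their likeness over the same 4 arrays, so their differences are a description.

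**Figure D4:**
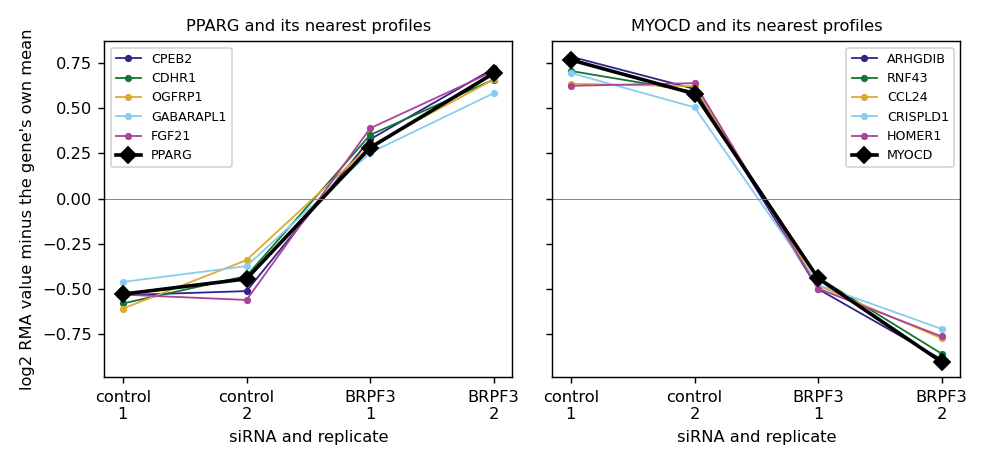
Log2 RMA values minus each gene's own mean on the 4 arrays, for PPARG (left, black) and MYOCD (right, black) with the 5 tested genes nearest to each in coloured lines. The lines nearly overlie, with distances of 0.09 to 0.16 for PPARG and 0.07 to 0.22 for MYOCD.

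The protein-coding genes that flank each regulator in RefSeq order were also read, 3 with a named probe set on either side. Around PPARG on chromosome 3 the flanking genes were VGLL4, SYN2 and TIMP4 before it and MKRN2, TMEM40 and CAND2 after it. SYN2, a synaptic vesicle protein, had 6.12 and 6.18 against 6.38 and 6.66, a difference of 0.37 ± 0.11 that did not pass (limma adjusted p = 0.0793). MKRN2, a ubiquitin ligase, differed by -0.33 ± 0.09 (limma adjusted p = 0.0543), opposite in sign to PPARG, and TIMP4 lay below the intensity bound. Around MYOCD on chromosome 17 the flanking genes were SHISA6, ZNF18 and MAP2K4 before it and ARHGAP44, ELAC2 and HS3ST3A1 after it. Their differences ran from -0.20 ± 0.08 for ELAC2 to 0.34 ± 0.16 for ARHGAP44, and none of the 6 passed limma's test or had an unadjusted p under 0.05.

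As a check of the cell type, the mesenchymal filament VIM (means of 10.36 and 10.49) and SPP1 (6.67 and 6.92) lay above the bound, and IBSP, a late bone matrix gene, lay below it, while 7 of the 10 osteoblast and mesenchymal markers were not analysed here. Summed log2 levels of the 3 named markers ran from 19.5 to 19.7 with control siRNA and from 19.9 to 20.1 with BRPF3 siRNA. The 3 named skeletal muscle markers summed to 16.0 to 16.2 and 16.8 to 16.8, with DES the 1 called. The 7 epithelial markers summed to 45.8 to 45.9 and 44.7 to 44.9, and 6 of them lay above the bound, among them KRT18 (means of 10.41 and 9.92) and EPCAM (7.92 and 8.18). KRT18 fell by 0.49 ± 0.09 (limma adjusted p = 0.0231), while CLDN4 (-0.53, limma adjusted p = 0.0690) and EPCAM (0.27, limma adjusted p = 0.0754) did not pass. The 4 leukocyte markers summed to 19.7 to 20.6 and 19.1 to 19.5, with LAPTM5 fallen by 0.88 ± 0.13 (limma adjusted p = 0.0170). CD52 (-0.28) and TYROBP (0.23) did not pass, and CD14 (0.11) lay below the bound. The 5 endothelial markers summed to 24.5 to 24.7 and 23.9 to 24.0. PECAM1 (-0.35), VWF (-0.15) and KDR (-0.05) lay below the bound, and neither of the 2 tested passed limma's test or had an unadjusted p under 0.05. The part of these markers in the PPARG and MYOCD differences was not tested.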

How the data were processed

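Total RNA of 2 control siRNA and 2 BRPF3 siRNA samples was labelled by the maker's whole-transcript chemistry, 1 array per sample, per the labels' protocols. The authors deposited log2 values for 53617 probe sets, made with RMA per the submitters' processing notes; its version and settings are not stated. RMA normalizes between arrays, so shifts common to all transcripts are removed, and dim values are compressed. Groups came from the sample titles.

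Probe sets were named from the platform annotation, 16098 with 1 gene symbol, 0 with several and 37519 with none, and all 16098 matched a RefSeq table of GRCh38.p14, used for names and neighbours alone. The brightest probe set stood for each of 14884 genes, and 10696 with a mean of at least 4.59, the median of all probe sets, were tested with limma 3.58.1 in R 4.3.3 (lmFit, eBayes, two-sided, Benjamini-Hochberg over all genes). The procedure was tested on simulated data. An exact permutation of 2 against 2 arrays cannot reach the threshold, so calls rest on limma's sharing of variance.

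PPARG and MYOCD and the 8 gene and 7 marker lists were chosen with earlier results of these data known. Named are these 2 genes, every called list gene, the 3 uncalled genes of highest array signal per list (a rule of choice, with no comparison of levels), 22 genes fixed by name and the 5 nearest profiles. The flanking genes, PPARA, PPARD, RETN, FOSB, JUNB, list members below the bound and the marker genes were named outside this rule, after the files were seen. The series' text places same-numbered samples in 1 biological replicate set. The main fit held the group alone and did not use these pairs, which entered only as the replicate block among the alternatives. Deviations of same-numbered arrays from their group means correlated at 0.14 over tested genes. Alternatives were quantile and cyclic loess normalization, the replicate block, an intensity trend, other filters, the mean of probe sets and leaving out each array.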

Additional observations from a re-analysis of the deposited data

How the results depend on the processing

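The PPARG difference (0.98) ran from 0.77 to 1.18 and the MYOCD difference (-1.35) from -1.58 to -1.12 over 8 alternatives each, both extremes with a BRPF3 siRNA array left out. Since both genes were chosen for this difference, the kept direction adds no support. The 1686 changed genes in all became 2645 under a trend of variance with intensity, 409 with no filter (more and dimmer genes tested), and 0 to 791 with an array left out. The 6 changed genes around PPARG became 14 with an intensity trend, 0 without a filter (limma, 18 at an unadjusted p under 0.05) and 0 to 3 with an array left out. The 10 around MYOCD became 1 without a filter and 0 to 4 with an array left out. The 4 other lineage regulators became 7 with an intensity trend, 1 without a filter and 0 to 2 with an array left out. Leaving out an array leaves its group with 1, which the fit takes to vary as the other group does. It also leaves the replicate sets unbalanced. Of the 20 changed list genes, 17 kept their calls under quantile and 17 under cyclic loess normalization, 14 with the replicate block, which ended no others than the 6 named with it in the report, and 2 without a filter (DES and MKX). The share of all calls that fell was 59.9% on the deposited values, 48.4% after quantile and 49.0% after cyclic loess normalization. Differences that turned sign belonged to genes that did not pass. After quantile and cyclic loess normalization KLF3 was at 0.035 and 0.042 (between -0.030 and 0.0050 in the fits on 3 arrays), MRTFB at 0.016 and 0.014 (between -0.16 and 0.014), and VCL at 0.028 and 0.015. In the fits on 3 arrays PDLIM7 ran from -0.0039 to 0.27, CCN2 from -0.40 to 0.13, EGR1 from -0.73 to 0.86, TNNC1 from -0.16 to 0.067, SNAI2 from -0.0071 to 0.29, ANGPTL4 from -0.021 to 0.13, SP7 from -0.38 to 0.013 and MYOD1 from -0.020 to 0.13. The cause of these changes was not tested. Within both replicate sets CCN2 lay lower, and PDLIM7 and MYOD1 higher, after BRPF3 siRNA. EGR1, TNNC1, SNAI2, ANGPTL4 and SP7 differed in sign between the sets. Genes below the intensity bound, 7 PPARG targets among them, were not tested.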
